A study of Mus musculus with 11 samples.

Results

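Nox1, Noxo1, Duox2, Duoxa2, Nos2, Ddah1 and Gpx2 encode the enzymes, and their partner proteins, with which the lining of the large intestine makes oxidants and nitric oxide and removes peroxides. They were found by exact gene symbol, each on 1 transcript cluster of the array, and are 7 of the 19944 genes tested. The 7 were chosen from earlier results of these same arrays, in which they were high in mutant mice given tamoxifen, so their differences from that group are given as a description, with no p-value. Counts of them past a threshold stand beside the share of all genes and support nothing.

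The mice carry, per the labels, a mutation named α6ΔIEC-TAM, in which tamoxifen is meant to delete the gene of integrin α6, Itga6, from intestinal epithelial cells. That integrin anchors epithelial cells to the basement membrane. Rectal mucosa came from 7 mice that had received tamoxifen, 4 of them mutant and 3 wild-type controls, and from 4 further mutants that had received NaCl, with 1 array per mouse. Tamoxifen was given by gavage, 2 doses at 10 mg per day on alternate days across 5 days, to mice aged 8 weeks. All 11 mice were 10 weeks old and were analysed on day 15 after the first gavage. In each mutant group 3 of 4 mice were female, and in the control group 1 of 3 was. Per the labels' protocols the animals were kept in a conventional facility. No group of wild-type mice given NaCl was analysed here. The promoter that drives the recombinase is not given in the sources used here. The groups are called mutant tamoxifen, control tamoxifen and mutant NaCl, and the number after a group only names an array.

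NOX1 is the membrane subunit of an NADPH oxidase that makes superoxide in colon epithelium, and NOXO1 is the protein that organises its assembly. DUOX2 releases hydrogen peroxide at the luminal surface, and DUOXA2 is the maturation factor that lets it leave the endoplasmic reticulum. NOS2 makes nitric oxide from arginine, DDAH1 breaks down methylarginines that inhibit nitric oxide synthases, and GPX2 is a selenium-containing peroxidase of the gut epithelium that reduces peroxides with glutathione.

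Promoter windows, from 250 bases before to 50 bases after the start of the gene, were taken from RefSeq (mouse build GRCm38.p6) and found for 6 of the 7 genes, by symbol. There was no window for Nos2. Those of Duox2 and Duoxa2 are shown because the genes lie head to head, with starts 673 bases apart, and because, of all genes, Duoxa2 had the pattern over the arrays closest to that of Duox2. Both are written 5′ to 3′ on the strand of the gene, Duox2 from chr2:122298178-122298477 on the minus strand and Duoxa2 from chr2:122298650-122298949 on the plus strand, with motif matches in capitals.
Duox2: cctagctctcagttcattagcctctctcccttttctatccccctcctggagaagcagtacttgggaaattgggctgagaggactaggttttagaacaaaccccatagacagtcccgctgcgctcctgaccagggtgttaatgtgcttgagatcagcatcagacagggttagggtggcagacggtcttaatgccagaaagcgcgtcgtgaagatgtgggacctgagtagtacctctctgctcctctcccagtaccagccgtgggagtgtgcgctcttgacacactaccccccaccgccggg
Duoxa2: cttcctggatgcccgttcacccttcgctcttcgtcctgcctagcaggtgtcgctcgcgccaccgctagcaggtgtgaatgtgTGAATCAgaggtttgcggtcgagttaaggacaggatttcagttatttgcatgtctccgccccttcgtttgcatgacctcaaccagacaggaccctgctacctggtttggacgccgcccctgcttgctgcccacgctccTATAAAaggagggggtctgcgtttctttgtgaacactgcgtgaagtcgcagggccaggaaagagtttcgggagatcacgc

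Each window was searched on both strands for 5 motifs, and overlapping matches would have been counted for each motif. These were the TATA box (TATAAA, in 13.6% of the 32851 RefSeq windows counted), the core of the antioxidant response element (TGACNNNGC, 12.4%), a STAT site (TTCNNNGAA, 8.3%), an AP-1 site (TGANTCA, 7.81%) and a κB core (GGANTTTCC, 1.25%). The windows counted left out those of a single chromosome. The Duoxa2 window held TATAAA beginning at position -30 and TGAATCA, an AP-1 match, beginning at position -168 from the start. None of the 5 motifs was found in the windows of Nox1, Noxo1, Duox2, Ddah1 and Gpx2. A match is only a run of letters, and these arrays do not measure binding at it.

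Beside the tissue label, a list of 10 intestinal epithelial genes, all measured, had a mean log2 level of 11.84 to 12.15 over the 11 arrays. A smooth muscle list lay about as high, at 11.55 to 12.26, so the epithelial level alone does not check the label. Epcam, an adhesion protein of epithelia, lay at 12.10 to 12.31. Array medians were 7.29 to 7.35, and log2 RMA values have no true zero, so no marker can be called absent. Within groups, arrays correlated with each other at 0.992 to 0.996 over all transcript clusters. Itga6 did not follow its label, since it was higher in the arrays labelled mutant tamoxifen than in control tamoxifen (limma, log2 difference 0.42, SE 0.0957, adjusted p = 0.00949) and mutant NaCl (0.41, SE 0.0831, adjusted p = 0.0053). Without mutant tamoxifen array 3 the first difference was 0.40 (limma, adjusted p = 0.0614). With females alone, which leaves 1 control array, it was 0.30. Whether its probes lie in the deleted stretch is not given in the sources used here, so Itga6 does not check the labels.

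All 7 genes had a higher mean in the arrays labelled mutant tamoxifen than in both other groups, and the size ranged from 0.08 to 2.57 on the log2 scale. Differences come from 1 linear model over the 11 arrays with a term for sex. The median difference over the 7 genes was 1.03 from control tamoxifen and 1.00 from mutant NaCl, and over all 19944 genes it was -0.02 and -0.01. Mucosa is a mixture of cells, so more cells that express a gene and more RNA per cell cannot be told apart. Both comparisons use the same 4 mutant tamoxifen arrays.

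**Figure D1:**
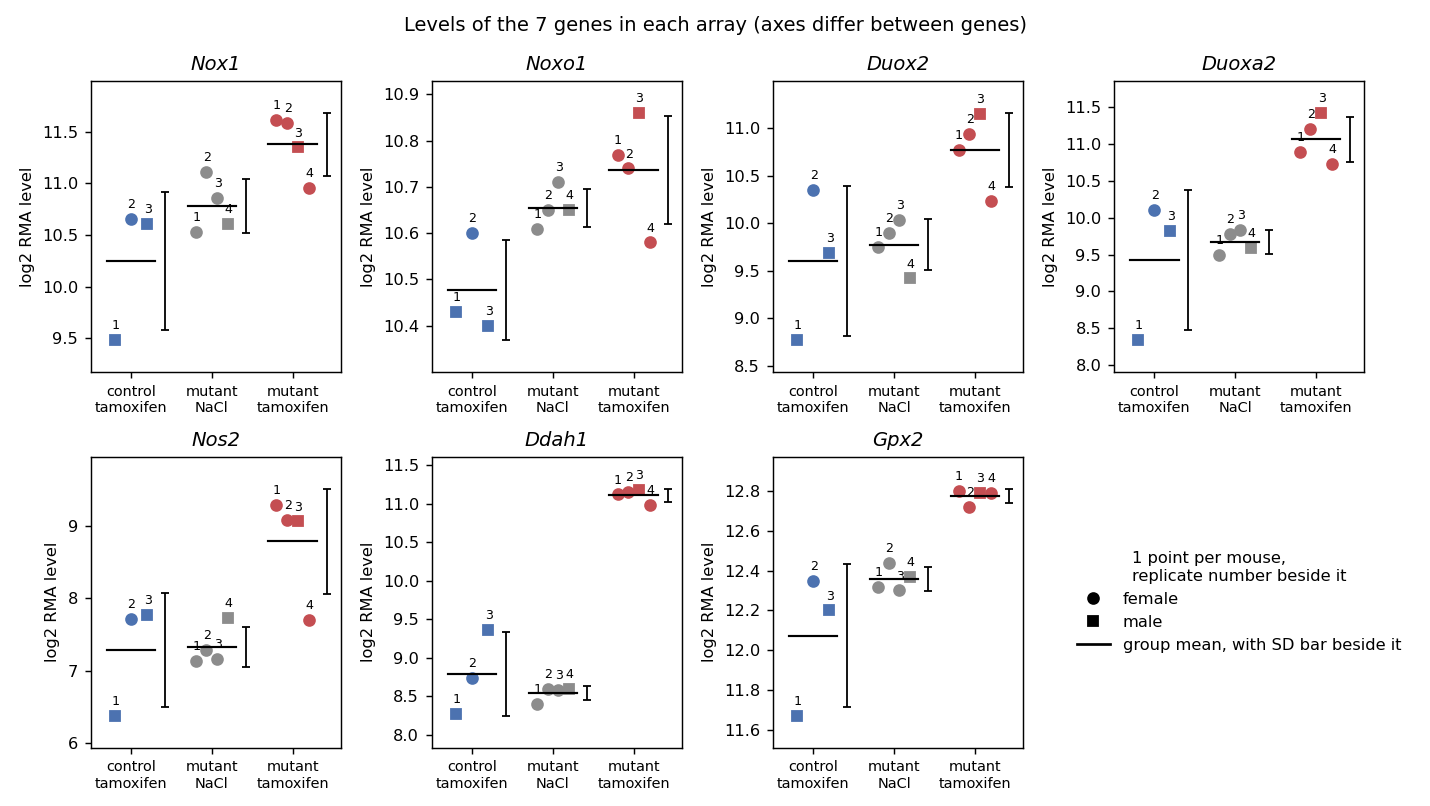
Log2 RMA level of each of the 7 genes in the 11 arrays, with females as circles, males as squares, the group mean as a line and the SD as a bar beside it. The 4 mutant tamoxifen points of Ddah1 lie at 10.98 to 11.18, above the 7 others at 8.27 to 9.36, whereas Nos2 in mutant tamoxifen array 4 (7.70) lies among the other groups.

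Nox1 had log2 levels of 11.62, 11.59, 11.35 and 10.96 in mutant tamoxifen, 9.48, 10.66 and 10.61 in control tamoxifen, and 10.53, 11.11, 10.86 and 10.61 in mutant NaCl. The mutant tamoxifen arrays all lay above the control arrays, and their lowest, array 4, lay below the highest mutant NaCl array. The means were 11.38 ± 0.303 (SD, n = 4), 10.25 ± 0.667 (SD, n = 3) and 10.78 ± 0.263 (SD, n = 4). The log2 difference of mutant tamoxifen was 1.01 (SE 0.277, 2.02-fold) from control tamoxifen and 0.61 (SE 0.24, 1.52-fold) from mutant NaCl.

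Noxo1, whose protein brings the NOX1 complex together, moved over a far narrower range. Its levels were 10.77, 10.74, 10.86 and 10.58 in mutant tamoxifen, 10.43, 10.60 and 10.40 in control tamoxifen, and 10.61, 10.65, 10.71 and 10.65 in mutant NaCl. Mutant tamoxifen array 4 lay below all mutant NaCl arrays and below control array 2, so the group overlapped with both others. The difference was 0.26 (SE 0.0759, 1.2-fold) from control tamoxifen and 0.08 (SE 0.0659, 1.06-fold) from mutant NaCl, the smallest of the 7 in both comparisons.

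Duox2 had levels of 10.77, 10.94, 11.15 and 10.24 in mutant tamoxifen, 8.77, 10.35 and 9.69 in control tamoxifen, and 9.75, 9.90, 10.04 and 9.42 in mutant NaCl. All mutant tamoxifen arrays lay above the mutant NaCl arrays, and control array 2 lay above mutant tamoxifen array 4. The means were 10.78 ± 0.387 (SD, n = 4), 9.60 ± 0.794 (SD, n = 3) and 9.78 ± 0.268 (SD, n = 4). The difference was 1.03 (SE 0.326, 2.04-fold) from control tamoxifen and 1.00 (SE 0.283, 2-fold) from mutant NaCl.

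Duoxa2, the neighbour and maturation factor of Duox2, had levels of 10.89, 11.20, 11.42 and 10.73 in mutant tamoxifen, 8.34, 10.11 and 9.82 in control tamoxifen, and 9.49, 9.78, 9.83 and 9.59 in mutant NaCl. The 4 mutant tamoxifen arrays lay above all 7 others. The difference was 1.56 (SE 0.362, 2.94-fold) from control tamoxifen and 1.38 (SE 0.314, 2.61-fold) from mutant NaCl. The spread was widest in the control group, with an SD of 0.946 (n = 3) around a mean of 9.42, against 0.307 (n = 4) around 11.06 in mutant tamoxifen.

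Nos2, the inducible nitric oxide synthase, had levels of 9.29, 9.08, 9.06 and 7.70 in mutant tamoxifen, 6.38, 7.72 and 7.77 in control tamoxifen, and 7.14, 7.29, 7.17 and 7.73 in mutant NaCl. Mutant tamoxifen arrays 1, 2 and 3 were above all other arrays, and array 4 lay below control arrays 2 and 3 and mutant NaCl array 4. The means were 8.78 ± 0.729 (SD, n = 4), 7.29 ± 0.791 (SD, n = 3) and 7.33 ± 0.274 (SD, n = 4). The difference was 1.54 (SE 0.438, 2.9-fold) from control tamoxifen and 1.45 (SE 0.381, 2.73-fold) from mutant NaCl, with the widest standard error of the 7 in both comparisons.

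Ddah1, which removes inhibitors of nitric oxide synthases, had the largest difference of the 7. Its levels were 11.12, 11.15, 11.18 and 10.98 in mutant tamoxifen, 8.27, 8.74 and 9.36 in control tamoxifen, and 8.40, 8.59, 8.58 and 8.59 in mutant NaCl. The lowest mutant tamoxifen array, array 4, was well above the highest of the others, control array 3. The difference was 2.35 (SE 0.204, 5.11-fold, 95% confidence interval 1.90 to 2.80) from control tamoxifen and 2.57 (SE 0.177, 5.93-fold, interval 2.18 to 2.96) from mutant NaCl. The intervals take no account of how the genes were chosen, so they only describe the spread around these differences. Ranked from the highest difference downward over all genes, it stood 12 against control tamoxifen and 5 against mutant NaCl.

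Gpx2, the epithelial glutathione peroxidase, had levels of 12.80, 12.72, 12.79 and 12.79 in mutant tamoxifen, 11.67, 12.35 and 12.20 in control tamoxifen, and 12.32, 12.44, 12.30 and 12.37 in mutant NaCl. The mutant tamoxifen arrays agreed closely, with an SD of 0.0378 (n = 4), and lay above all 7 others. The difference was 0.65 (SE 0.127, 1.57-fold) from control tamoxifen and 0.42 (SE 0.11, 1.34-fold) from mutant NaCl.

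**Figure D2:**
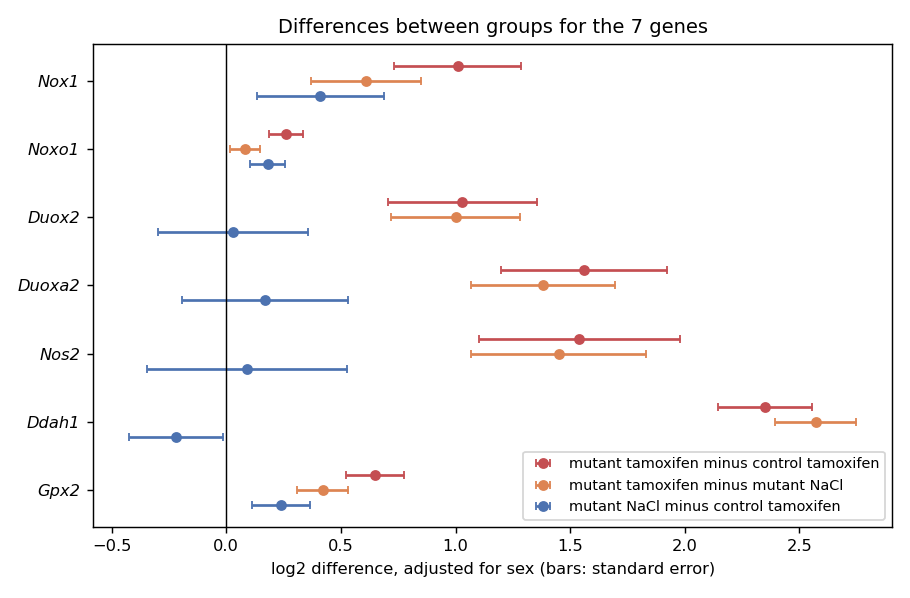
Log2 difference between groups, adjusted for sex, for each of the 7 genes, with the standard error as a bar, in the 3 comparisons. Ddah1 lies farthest to the right at 2.35 and 2.57, Noxo1 nearest to 0 at 0.26 and 0.08, and the comparison of mutant NaCl with control tamoxifen stays between -0.22 and 0.41.

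The groups did not overlap for 4 of the 7 genes against control tamoxifen (Nox1, Duoxa2, Ddah1 and Gpx2), where 17.3% of all genes had every mutant tamoxifen array above every control array. They did not overlap for 4 against mutant NaCl (Duox2, Duoxa2, Ddah1 and Gpx2), where the share of all genes was 14.2%. Duoxa2, Ddah1 and Gpx2 lay above all 7 other arrays, a pattern that 12% of all genes had. With limma and a threshold of 0.05 on adjusted p, all 7 genes were past it as higher against control tamoxifen, where 24.6% of all genes passed and 12.9% passed as higher. Against mutant NaCl 5 passed as higher, all but Nox1 and Noxo1, where 23.2% of all genes passed and 12.5% passed as higher. The genes were chosen from these comparisons, so nothing is read from these counts.

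The differences moved with single arrays. Without mutant tamoxifen array 3, the male of its group, the Duox2 difference from control tamoxifen was 0.53 in place of 1.03 and that of Noxo1 was 0.16 in place of 0.26. Without control array 1 the Duox2 difference was 0.72 and that of Nos2 was 1.12 in place of 1.54, and without control array 2, the only female of its group, the Duox2 difference was 1.55. The Noxo1 difference from mutant NaCl, 0.08, was 0.02 without mutant tamoxifen array 3 and 0.14 without mutant tamoxifen array 4. Over all 24 alternative settings Ddah1 lay at 2.11 to 2.59 from control tamoxifen and 2.53 to 2.61 from mutant NaCl. With females alone, which leaves 1 control array, Duoxa2 differed from control tamoxifen by 0.83 in place of 1.56 and Gpx2 by 0.42 in place of 0.65. The count of the 7 past the threshold was 2 to 7 against control tamoxifen and 2 to 6 against mutant NaCl with 1 array left out, lowest in both without mutant tamoxifen array 3.

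Mutant NaCl and control tamoxifen were both the lower side when the 7 genes were chosen, so their comparison is not independent of the choice and is described too. For 6 of the 7 genes, all but Noxo1, the 95% confidence interval of the difference held 0. Nox1 differed by 0.41 (SE 0.277, 95% confidence interval -0.21 to 1.02) and Ddah1 by -0.22 (SE 0.204, interval -0.67 to 0.24). The Noxo1 arrays of mutant NaCl all lay above those of control tamoxifen (0.18, SE 0.0759, interval 0.01 to 0.34). Of all 19944 genes, Noxo1 among them, 0 passed, which is 0%. An unadjusted limma p under 0.05, which goes with an interval that leaves out 0, was found for 1625 genes, or 8.15%. The 24 alternative limma settings gave 0 to 3 genes. By means, 6 of the genes were ordered control tamoxifen, mutant NaCl, mutant tamoxifen, and Ddah1 had mutant NaCl below control tamoxifen. The values of these lower groups overlapped for all but Noxo1. The share of all genes without overlap between them was not counted, so nothing is read from the Noxo1 pattern.

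Sex was unevenly spread over the groups, so its term was tested too. None of the 7 genes passed for male minus female (limma, adjusted p 0.912 to 0.997), where 7 of all genes did, or 0.0351%. The largest sex term was that of Duox2, -0.34 (SE 0.272, limma adjusted p = 0.912).

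Within groups, some arrays were low for most of these genes and others were mixed. For how many of all genes these arrays were lowest was not counted. Mutant tamoxifen array 4 was the lowest of its group for 6 of the 7 genes, all but Gpx2. Control array 1, the lowest for all but Noxo1, was below its group mean for all 7, by 1.08 for Duoxa2, and mutant NaCl array 1 was below its group mean for all 7 as well. Mutant tamoxifen array 3 was the highest of its group for Noxo1, Duox2, Duoxa2 and Ddah1. Control array 3 and mutant NaCl array 4 were each the highest of their group for Nos2 and Ddah1. The former was the lowest for Noxo1 and the latter for Duox2. Without control array 1 and mutant tamoxifen array 4, left out because they were lowest for most of these genes, the difference of Nox1 was 0.85 from control tamoxifen and 0.76 from mutant NaCl, and that of Ddah1 from control tamoxifen was 2.14.

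**Figure D3:**
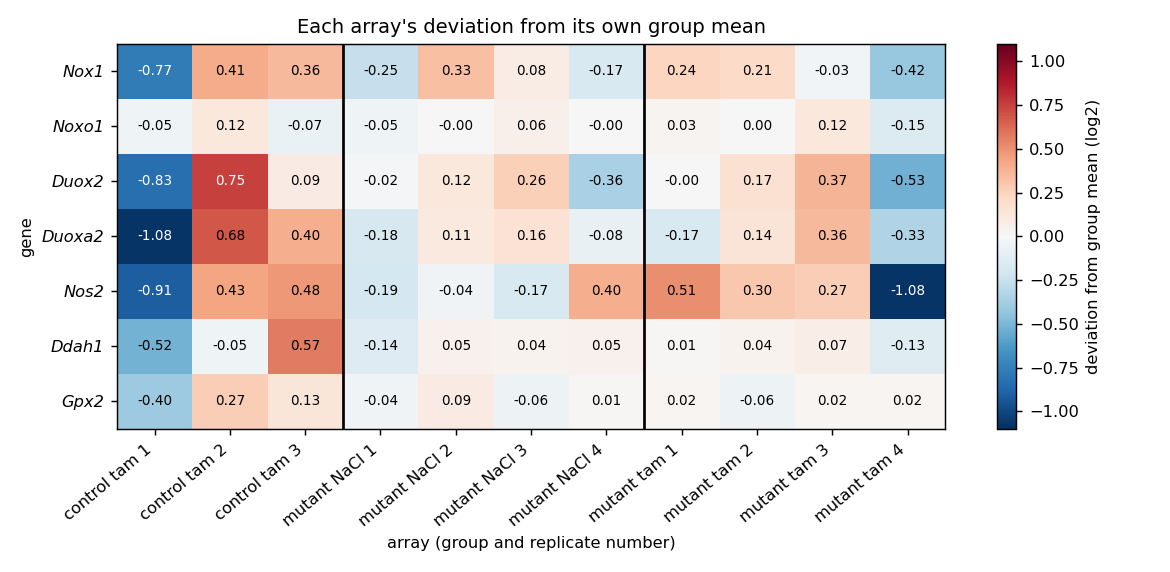
Deviation of each array from the mean of its own group, on the log2 scale, for the 7 genes (rows) in the 11 arrays (columns), with blue for below and red for above the mean. The columns of control array 1 and mutant tamoxifen array 4 are mostly blue, down to -1.08 for Duoxa2 and Nos2, and Gpx2 hardly varies in mutant tamoxifen.

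Likeness of pattern was measured as the root mean square distance between 2 genes over the 11 arrays, each gene centred on its own mean, and is a description. Of all genes tested, Duoxa2 had the pattern closest to Duox2, at a distance of 0.27. Seen from Duoxa2, Duox2 came after Ripk3, a kinase of necroptosis (0.253), and Tnip3, an inhibitor of NF-κB signalling (0.257). For Nos2, Duoxa2 was second at 0.381, after a gene of the classes that were left out of the naming. The distance tends to be larger for a gene that varies more. Its median over all genes was 0.68 for Duox2, 0.861 for Duoxa2 and 0.894 for Nos2.

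Neighbours named from here on are the nearest outside the 7 once predicted genes and other classes, given under processing, were left out. Among these, the genes nearest to Nox1 were Mvd (0.234), Slc51b (0.235) and Idi1 (0.237). Mvd and Idi1 encode enzymes of the mevalonate pathway to sterols, and Slc51b a subunit of the basolateral bile acid exporter. Ripk3 (0.289), Gmppb (0.3) and Pmvk (0.302), the last also of the mevalonate pathway, were nearest to Duox2. Among the same genes, Nos2 was nearest to Clca3a2 (0.385), Tnip3 (0.412) and Reg3g (0.442), a lectin that kills Gram-positive bacteria.

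Ddah1 was nearest to Saa3 (0.325), an acute phase protein, Trim15 (0.331) and Mgat4c (0.338). Their differences from control tamoxifen were 2.32, 2.43 and 2.47, beside 2.35 for Ddah1. Gpx2 was nearest to Tmem97 (0.0731), S100a16 (0.0859) and Lrrc59 (0.0862), and Noxo1, which varied least, to Stk16 (0.0463), Far1 (0.0506) and Cyb5r4 (0.0569). The third gene nearest to Duoxa2 outside the 7 was Phlda2 (0.341). Nothing on shared function or control follows from these distances.

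The other genes of the same metabolism were taken from 9 lists of 109 genes, of which 100 were measured. Against control tamoxifen 28 were higher and 10 lower past the threshold, and against mutant NaCl 29 were higher and 9 lower, 38% of the measured genes in both. Over all genes the shares were 24.6% and 23.2%. Between mutant NaCl and control tamoxifen none of the 100 passed. The median difference of the 100 was 0.11 and 0.09, beside -0.02 and -0.01 for all genes. In each pair of values that follows, the value against control tamoxifen stands first and the one against mutant NaCl second.

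**Figure D4:**
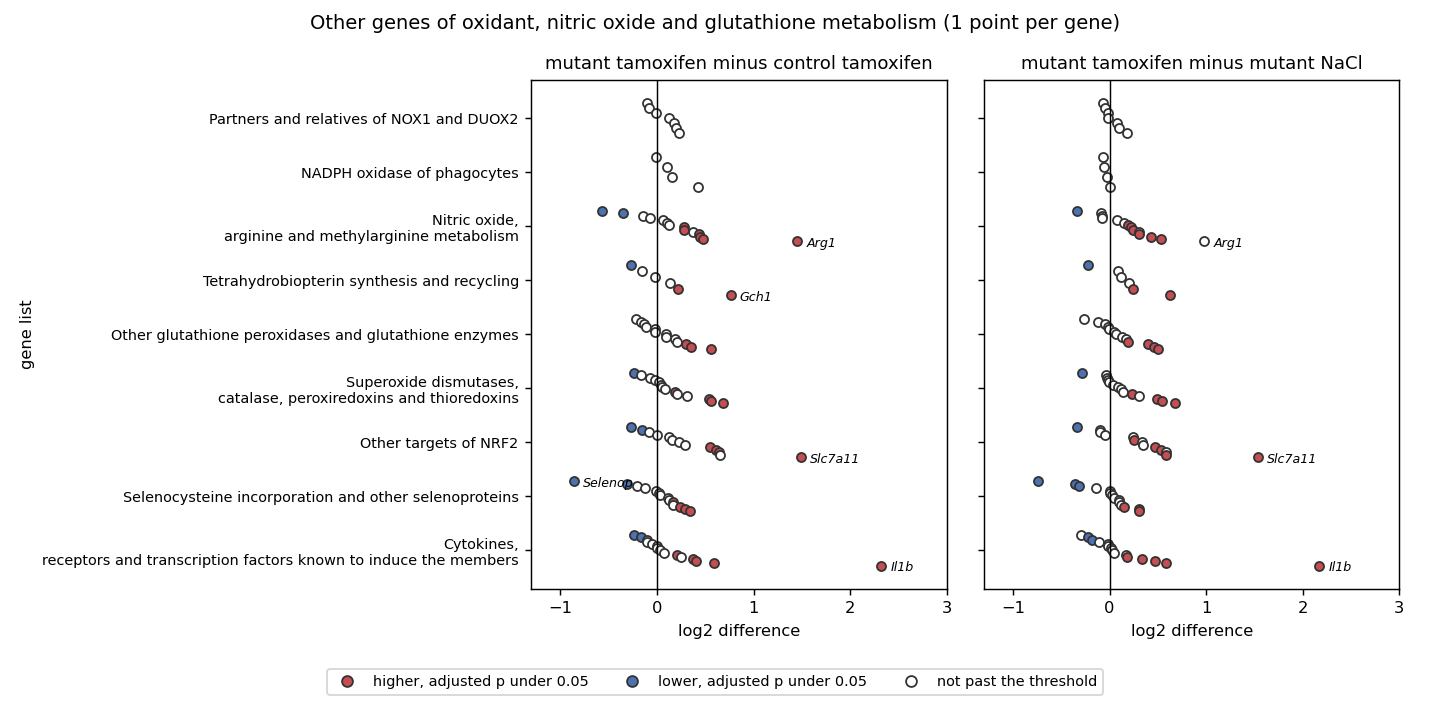
Log2 difference of each of the 100 measured genes of the 9 lists (rows) against control tamoxifen (left) and mutant NaCl (right), filled where adjusted p is under 0.05. Il1b (2.32 and 2.17) and Slc7a11 (1.49 and 1.54) stand far to the right, Selenop (-0.86 and -0.74) to the left, and the rows of the NADPH oxidase partners and of the phagocyte oxidase hold no filled point.

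Of the 7 partners and relatives of NOX1 and DUOX2, 0 passed in both comparisons. Cyba, the p22phox subunit that stabilises NOX1, differed by 0.18 and 0.18 (limma, adjusted p = 0.0856 and 0.0624). It passed against control tamoxifen without control array 3 (0.24, limma adjusted p = 0.0271) or mutant NaCl array 4 (0.21, limma adjusted p = 0.0446), and against mutant NaCl without control array 3 (0.18, limma adjusted p = 0.0379). With no sex term it passed in both (0.19 and 0.18, limma adjusted p = 0.048 and 0.0497), and against mutant NaCl it also passed with only the arrays compared, with either filter on dim genes and with median centring (limma, adjusted p 0.0385 to 0.0499). Noxa1, the activator of NOX1, differed by 0.23 and -0.07 (limma, adjusted p = 0.134 and 0.622), and Rac1, the GTPase that switches the complex on, by 0.12 and 0.08 (limma, adjusted p = 0.165 and 0.313). Nox3, the oxidase of the inner ear, differed by -0.08 and -0.05 (limma, adjusted p = 0.174 and 0.397). Its levels, 5.10 to 5.27, lay below the array medians, so its small differences say little.

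The paralogous pair Duox1 and Duoxa1 did not pass. Duox1 levels, 6.26 to 6.82, lay below the array medians of 7.29 to 7.35, so its lack of a difference says little. Duox1 differed by -0.10 (95% confidence interval -0.36 to 0.15) and -0.02 (-0.24 to 0.20), and Duoxa1 by 0.20 (-0.15 to 0.56) and 0.10 (-0.21 to 0.40). Of the NADPH oxidase of phagocytes 4 of 5 genes were measured and 0 passed. Its membrane subunit Cybb differed by -0.01 (interval -0.30 to 0.28) and -0.07 (-0.32 to 0.18), Ncf1 by 0.15 and -0.00, Ncf4 by 0.10 and -0.03 and Rac2 by 0.42 and -0.06 (limma, adjusted p = 0.29 and 0.888).

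In nitric oxide and arginine metabolism 14 of 15 genes were measured. Of these 6 were higher and 2 lower against control tamoxifen, and 6 higher and 1 lower against mutant NaCl. Nos1, the neuronal nitric oxide synthase, was lower in both, by -0.57 (SE 0.0793, limma adjusted p = 0.000956) and -0.34 (SE 0.0689, limma adjusted p = 0.00528), with no overlap between groups. Nos3, the endothelial form, differed by 0.10 and 0.15 and did not pass (limma, adjusted p = 0.393 and 0.159). Ddah2, the paralog of Ddah1, was lower against control tamoxifen (-0.35, SE 0.0905, limma adjusted p = 0.019) and differed by -0.08 from mutant NaCl (limma, adjusted p = 0.534). Its call was lost without mutant tamoxifen array 3 or control array 1, at -0.31 in both. Arg1, arginase 1, which uses the same substrate as NOS2 and is named after its values were seen, was higher by 1.45 against control tamoxifen (SE 0.375, limma adjusted p = 0.018). It differed by 0.98 from mutant NaCl (SE 0.326, limma adjusted p = 0.0521), the groups overlapped in both comparisons, and other settings were not run for it.

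Prmt1, Prmt3 and Prmt6 encode methyltransferases that form asymmetric dimethylarginine on proteins, the source of what DDAH1 degrades, and all 3 were higher in both comparisons. Prmt1 differed by 0.44 and 0.43 (limma, adjusted p = 0.00841 and 0.00458), Prmt3 by 0.43 and 0.31 (limma, adjusted p = 0.00444 and 0.00998) and Prmt6 by 0.28 and 0.19 (limma, adjusted p = 0.0088 and 0.0262). Prmt1 lost its call against control tamoxifen without mutant tamoxifen array 3 (0.42) or control array 2 (0.38), and Prmt6 without mutant tamoxifen array 3 (0.25). Against mutant NaCl, Prmt6 lost it without mutant tamoxifen array 1, 2 or 3 or mutant NaCl array 2 or 4, at 0.16 to 0.20.

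Of 6 measured genes of tetrahydrobiopterin, the cofactor of nitric oxide synthases, 2 were higher and 1 lower in each comparison. Gch1, the first enzyme of its synthesis, had levels of 8.34 to 8.48 in mutant tamoxifen, 7.23 to 7.84 in control tamoxifen and 7.65 to 7.83 in mutant NaCl. It differed by 0.76 (SE 0.136, 1.7-fold, limma adjusted p = 0.00299) and 0.63 (SE 0.118, 1.55-fold, limma adjusted p = 0.00385). Pcbd1, which serves the recycling of the cofactor, was higher by 0.22 and 0.24 (limma, adjusted p = 0.00783 and 0.00281). Spr, which completes the synthesis, differed by 0.13 and 0.20 and did not pass (limma, adjusted p = 0.317 and 0.0832). Qdpr, the recycling reductase, was lower by -0.27 and -0.22 (limma, adjusted p = 0.00654 and 0.0101), and without control array 2 its first difference was -0.22 (limma, adjusted p = 0.0713).

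Among 13 other glutathione peroxidases and glutathione enzymes 3 were higher against control tamoxifen and 4 against mutant NaCl, with 0 lower. Gpx1, the peroxidase found in most cells, was higher by 0.30 and 0.19 (limma, adjusted p = 0.00116 and 0.00478). Gsr, which regenerates reduced glutathione, was higher by 0.56 and 0.46 (limma, adjusted p = 0.00198 and 0.00264). Gss, the last enzyme of glutathione synthesis, was higher by 0.35 and 0.40 (limma, adjusted p = 0.0117 and 0.0032), and without mutant tamoxifen array 3 the first was 0.31 (limma, adjusted p = 0.0769). Gclm, a subunit of the enzyme that starts glutathione synthesis, differed by 0.21 and 0.17 and did not pass (limma, adjusted p = 0.105 and 0.145). The median of the 13 was 0.09 and 0.07.

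Superoxide dismutases, catalase, peroxiredoxins and thioredoxins had 4 of 14 measured genes higher and 1 lower in each comparison. Prdx4, the peroxiredoxin of the endoplasmic reticulum, was higher by 0.68 and 0.68 (limma, adjusted p = 0.000828 and 0.000333), Txnrd1, a selenium-containing reductase, by 0.56 and 0.49 (limma, adjusted p = 0.00111 and 0.000923), and Sod3, the secreted superoxide dismutase, by 0.54 and 0.54 (limma, adjusted p = 0.00202 and 0.000967). Cat, the catalase of peroxisomes, was lower by -0.24 and -0.28 (limma, adjusted p = 0.0359 and 0.00999). Its call against control tamoxifen was lost without mutant tamoxifen array 2, 3 or 4, control array 1 or 2, or mutant NaCl array 1 or 4, at -0.29 to -0.18.

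Of 13 other genes known as targets of the oxidant-responsive factor NRF2, 4 were higher and 2 lower against control tamoxifen, and 5 higher and 1 lower against mutant NaCl. The median of the 13 was 0.23 and 0.34. The genes named next were taken by smallest p, and all of them were higher. Those past the threshold as lower are not among them, so the named genes do not stand for the list. Slc7a11, the cystine importer that feeds glutathione synthesis, had levels of 8.87, 9.04, 8.79 and 9.25 in mutant tamoxifen, 6.75, 7.87 and 7.33 in control tamoxifen and 7.88, 7.42, 7.23 and 7.27 in mutant NaCl. It was higher by 1.49 (SE 0.203, 2.81-fold, limma adjusted p = 0.00085) and 1.54 (SE 0.176, 2.9-fold, limma adjusted p = 0.000282), with no overlap between groups. Tkt and Pgd, enzymes of the pentose phosphate pathway, were higher by 0.61 and 0.53 and by 0.55 and 0.47. Hmox1, which breaks down haem, was higher by 0.64 and 0.58 (limma, adjusted p = 0.00578 and 0.00454), and without control array 2 the first was 0.58 (limma, adjusted p = 0.0513).

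GPX2 is a selenoprotein, and of 14 genes of selenocysteine incorporation and other selenoproteins 4 were higher and 2 lower against control tamoxifen, and 3 higher and 3 lower against mutant NaCl. Selenop, the secreted carrier of selenium, went the other way from Gpx2. Its levels were 11.65, 11.51, 11.56 and 11.61 in mutant tamoxifen, 12.65, 12.31 and 12.44 in control tamoxifen and 12.37, 12.29, 12.30 and 12.33 in mutant NaCl. It was lower by -0.86 (SE 0.0716, limma adjusted p = 6.78e-05) and -0.74 (SE 0.0622, limma adjusted p = 4.37e-05).

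The remaining selenoprotein genes moved less. Selenoh was higher by 0.34 and 0.31 (limma, adjusted p = 0.0039 and 0.00315), and Selenom was lower by -0.31 and -0.32 (limma, adjusted p = 0.00763 and 0.00295). Without mutant tamoxifen array 3 or control array 2 the first Selenom difference was -0.28 (limma, adjusted p = 0.0559 and 0.0615). Selenot was higher by 0.24 against control tamoxifen (limma, adjusted p = 0.00551) and differed by 0.10 from mutant NaCl (limma, adjusted p = 0.103), or 0.13 without mutant tamoxifen array 4 (limma, adjusted p = 0.0413).

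Among 15 measured cytokines, receptors and transcription factors known to induce these enzymes, 5 were higher and 2 lower in each comparison. Il1b, which encodes interleukin 1β, had levels of 9.89, 8.55, 9.57 and 10.01 in mutant tamoxifen, 6.66, 7.37 and 7.46 in control tamoxifen and 7.53, 7.13, 7.30 and 7.40 in mutant NaCl, with no overlap. It was higher by 2.32 (SE 0.337, limma adjusted p = 0.00114) and 2.17 (SE 0.293, limma adjusted p = 0.000684). Mutant tamoxifen array 4, the lowest of its group for 6 of the 7 genes, Nos2 among them, was the highest for Il1b. A link was not tested. Tnf, which encodes tumour necrosis factor, was higher by 0.59 and 0.58 (limma, adjusted p = 0.000882 and 0.000415).

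Il4ra and Ifngr1, the receptor genes of that list named by smallest p, went opposite ways. Il4ra was higher by 0.37 and 0.47 (limma, adjusted p = 0.0256 and 0.00464), and lost its call against control tamoxifen without mutant tamoxifen array 3 (0.18), control array 1 (0.32) or control array 2 (0.44). Ifngr1, a receptor chain for interferon γ, was lower by -0.17 and -0.18 (limma, adjusted p = 0.0162 and 0.00629), and without control array 2 the first was -0.15 (limma, adjusted p = 0.118).

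Marker lists of cell types were set beside the same comparisons. There 24.6% and 23.2% of all genes passed, and 12.9% and 12.5% passed as higher. Of 12 neutrophil genes 11 were higher in both comparisons, and the list's mean level was 7.22 to 7.73 in mutant tamoxifen, 6.65 to 6.82 in control tamoxifen and 6.60 to 6.69 in mutant NaCl. Mutant tamoxifen array 4 had the highest neutrophil level of its group and was the lowest for 6 of the 7 genes, Nos2 among them. Of 9 measured genes of dividing crypt cells 9 and 7 were higher (10.49 to 10.65 in mutant tamoxifen, 9.34 to 9.98 in control tamoxifen and 10.00 to 10.25 in mutant NaCl). Of 10 absorptive colonocyte genes 8 and 7 were lower (11.23 to 11.47, 12.00 to 12.31 and 11.93 to 12.05), and of 10 smooth muscle genes all 10 were lower in both (11.55 to 11.68, 12.12 to 12.24 and 11.98 to 12.26).

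Macrophage genes were lower for 3 of 10 against control tamoxifen and 0 against mutant NaCl, with list means of 9.72 to 9.88, 9.90 to 10.27 and 9.83 to 10.05. Goblet cell genes split, with 3 and 4 of 8 measured genes higher and 2 lower in each comparison. Of 9 lymphoid genes 1 was higher in each, or 11.1%, near the share of all genes passing as higher. Of 9 fibroblast and endothelial genes 1 and 3 were higher and 0 and 1 lower. Of the 10 epithelial genes 3 and 5 were higher and 1 was lower. The part of these cell types in the differences of the 7 genes was not tested.

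The list of the anal canal's squamous epithelium varied most between arrays, from 6.60 in control array 1 to 10.53 in control array 2, and 0 of its 12 genes passed in either comparison. Control array 1, lowest for this list, was also the lowest of its group for 6 of the 7 genes. In mutant tamoxifen, array 3 was lowest for the list (8.39, against 9.87 to 10.40 in the others) and highest for Noxo1, Duox2, Duoxa2 and Ddah1. Array 4, next lowest for the list at 9.87, was the lowest of its group for 6 of the 7 genes. Array 1, at 10.37, was highest for Nox1, Nos2 and Gpx2. A link to the list within groups was not tested. With the list's mean as a term in the model, the differences from control tamoxifen were 0.82 for Nox1, 0.24 for Noxo1, 0.86 for Duox2, 1.30 for Duoxa2, 1.17 for Nos2, 2.25 for Ddah1 and 0.54 for Gpx2. Against mutant NaCl the same term left 0.60 for Nox1, 0.99 for Duox2 and 2.56 for Ddah1.

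**Figure D5:**
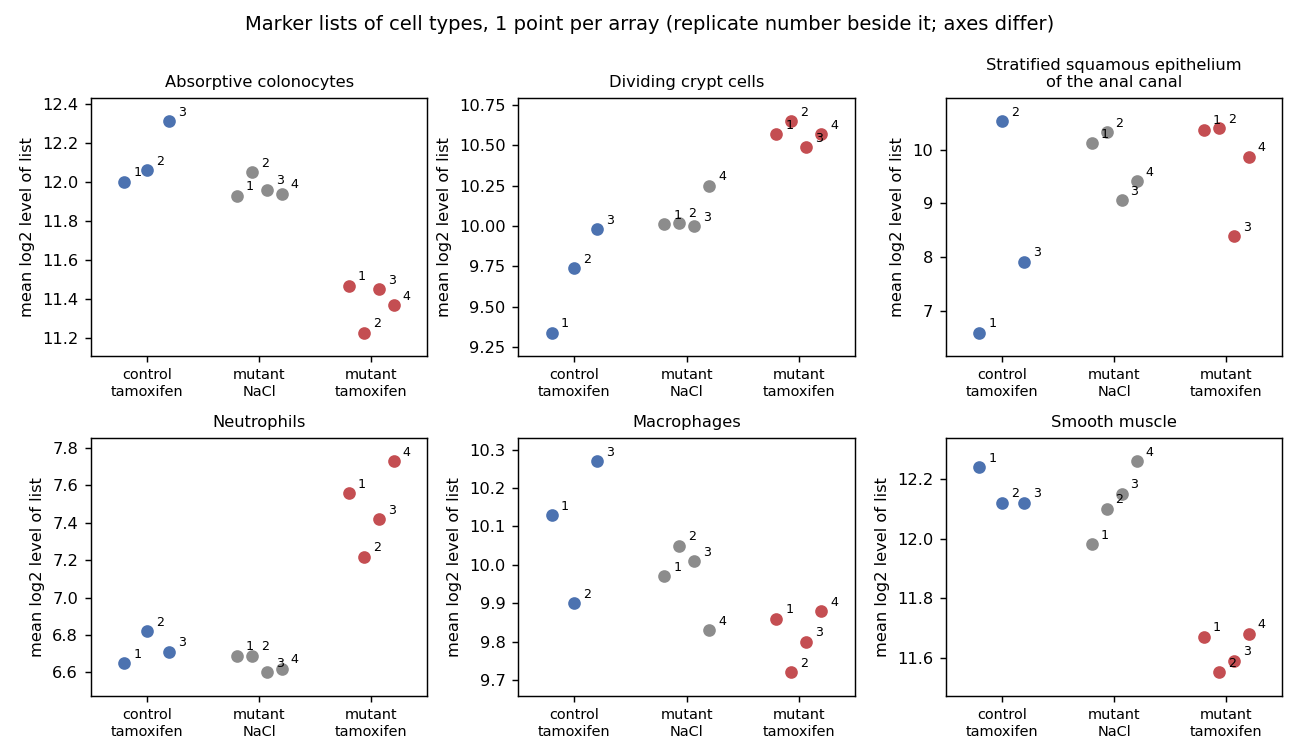
Mean log2 level of 6 lists of cell type markers in each of the 11 arrays, with the replicate number beside each point. The mutant tamoxifen arrays lie apart for the neutrophil (7.22 to 7.73), dividing crypt (10.49 to 10.65), absorptive colonocyte (11.23 to 11.47) and smooth muscle lists (11.55 to 11.68). The squamous list runs from 6.60 to 10.53 within the control group.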

How the data were processed

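Total RNA of rectal mucosa was measured, per the labels' protocols, on Affymetrix Mouse Gene 1.0 ST arrays. The values deposited by the authors are log2 levels of transcript clusters, normalised with RMA per the labels. The series design text names Command Console (version 2.0) for scanning and Expression Console (version 1.1) for RMA. Partek appears in the submitters' processing notes without a role. A genome build is not given in the sources used here. Of 35556 transcript clusters 21797 had 1 gene symbol in the platform annotation, 1613 several and 12146 were not listed. Symbols were matched to RefSeq names (GRCm38.p6), 21774 as given, 2 updated and 21 unmatched. The cluster with the highest mean stood for a gene, which gave 19944 genes.

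All 11 arrays entered 1 limma model (limma 3.58.1, R 4.3.3, group plus sex, variance trend, Benjamini-Hochberg over all genes, two-sided, threshold 0.05), after the step was tested on simulated data. P-values rest on the spread between mice, and the small number of mice limits precision. The genes and lists were chosen with earlier results of these data known. Named were the 7 genes, 9 direct partners or paralogs, per pathway list the 4 genes with the smallest p against control tamoxifen and the 2 against mutant NaCl, and the 3 genes nearest in pattern to each of the 7 (without predicted genes, Rik clones, small RNA genes, olfactory or vomeronasal receptors, and segments of immunoglobulins or T cell receptors). Alternatives were the sex term, females alone, arrays in the fit, dim-gene filters, normalisation, variance model, array weights, choice of cluster, a squamous term and leaving out arrays.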

Additional observations from a re-analysis of the deposited data

Results flagged for a closer look

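In groups of 4 arrays the highest or lowest value was set against the others by Dixon's criterion, for 47 genes in 94 groups. It picked 8 groups, and chance picks about 1 in 20.

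Among the 7 genes, Nos2 in mutant tamoxifen array 4 was 7.70, far below the next value of its group, 9.06. Ddah1 in mutant NaCl array 1 was 8.40, with the next at 8.58, and Gpx2 in mutant tamoxifen array 2 was 12.72, with the next at 12.79, both within narrow ranges.

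Of the other genes, Gch1 in mutant NaCl array 2 was 7.65 (next 7.80), and Qdpr in mutant tamoxifen array 4 was 10.24 (next 10.30). Prdx4 in mutant NaCl array 4 was 8.96 (next 9.23). Selenom in mutant tamoxifen array 1 was high at 10.23 (next 10.16), as was Il4ra in mutant tamoxifen array 3 at 10.18 (next 9.94).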

How the results depend on the processing

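Over 24 alternatives no value of the 7 genes past the threshold changed sign. With females alone, which leaves 1 control array assumed to vary like the others, 1385 genes passed against control tamoxifen in place of 4915, and Nox1 (0.73), Noxo1 (0.10), Duox2 (0.31) and Nos2 (0.97) lost their call. Duoxa2 (0.83) and Gpx2 (0.42) were also smaller. With only the arrays compared, Nox1 (1.00), Noxo1 (0.26), Duox2 (1.06) and Nos2 (1.44) lost it and Nox1 gained one against mutant NaCl (0.61). Robust moderation ended it for Nox1 (1.01), Duox2 (1.03) and Nos2 (1.54), and for Duox2 (1.00) and Nos2 (1.45) against mutant NaCl. The squamous term ended it for Noxo1 (0.24) and Duox2 (0.86). Without control array 1 and mutant tamoxifen array 4, chosen after seeing the data, Nox1 passed against mutant NaCl (0.76). Leaving out all genes under the median level removed Nos2. Between mutant NaCl and control tamoxifen 3 genes passed with only the arrays compared, 2 without those 2 arrays, and 1 with the 50% filter, median centring, quantile normalisation, array weights or the squamous term.

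Leaving out 1 array at a time gave 2517 to 4685 genes against control tamoxifen (2517 without mutant tamoxifen array 3, 3031 without control array 2), 3150 to 4924 against mutant NaCl and 0 to 3 between the other groups. Against control tamoxifen the ranges were Nox1 0.71 to 1.23, Noxo1 0.16 to 0.38, Duox2 0.53 to 1.55, Duoxa2 1.11 to 2.11 and Nos2 1.12 to 2.04. Against mutant NaCl they were Nox1 0.50 to 0.77, Noxo1 0.02 to 0.14, Duox2 0.68 to 1.21, Nos2 1.26 to 1.81 and Gpx2 0.37 to 0.47. Of the 951 values of the other named genes against control tamoxifen 40 lost a call and 3 gained one, and against mutant NaCl 7 lost and 9 gained one. The causes were not tested. No paired analysis was possible because the labels give no replicate numbers shared between groups. Arrays hold no counts, so the number of mice limits precision.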
